A study of Homo sapiens with 8 samples.

Results

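tRNA-Arg-TCG is the arginine tRNA whose anticodon pairs with the codon CGA, and it is carried by several genes that share the anticodon and differ elsewhere (isodecoders). All sense-strand crosslink counts on the references named tRNA-Arg-TCG were taken, which gave 6 of the 254 references of the series, numbered TCG-1-1 to TCG-6-1, and 62 positions with a count. The family was selected on measured values: its share of a library's counts was lower with 5-chlorouridine (5-ClUrd) than without it for both enzymes. The values of that comparison are therefore given as a description, with no test, and the tests below compare the enzymes.

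The data were 8 individual-nucleotide crosslinking and immunoprecipitation (iCLIP) libraries from Flp-In T-Rex 293, a line of human embryonic kidney origin with a single site for inserting a transgene. The 4 groups were cells with 3xFLAG-DUS2L and 5-ClUrd, cells with 3xFLAG-DUS2L without it, cells with 3xFLAG-DUS1L and 5-ClUrd, and cells with 3xFLAG-DUS1L without it, with 2 libraries each. The series describes these as biological replicates. Every group, untreated ones included, expressed the tagged enzyme from the transgene under tetracycline at 1 µg/mL, given for 12 h before the medium was changed and for 12 h after it. The treated cells had 5-ClUrd at 100 µM during the second 12 h. The sources used here do not give whether a line was a clone or a pool. The references in the files are tRNA and rRNA, so the cell type could not be checked against marker transcripts.

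Dihydrouridine synthases reduce uridine to dihydrouridine in tRNA, mainly in the D loop, and DUS1L and DUS2L act on different uridines there. A uridine that carries chlorine can hold such an enzyme on its RNA through a covalent bond, so 5-ClUrd in the medium can raise the recovery of RNA that the enzyme works on. iCLIP reads the positions at which cDNA synthesis ended next to the crosslinked protein, and each count is a cDNA assigned to 1 position. Modified nucleosides of tRNA can also end cDNA synthesis, and the files do not separate these events.

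RefSeq (GRCh38.p14) placed 5 of the 6 references, each as a tRNA gene of 73 bases. TRR-TCG1-1 lies on chromosome 15 from 89335073 to 89335145. TRR-TCG3-1 lies on chromosome 17 from 75035113 to 75035185. The other 3 lie on chromosome 6: TRR-TCG2-1 from 26322818 to 26322890, TRR-TCG4-1 from 26299677 to 26299749, and TRR-TCG5-1 from 28543114 to 28543186. TCG-6-1 was not in the annotation used here.

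Sense counts per library ran from 7369 to 824657, and the lowest was DUS1L untreated library 2, whose values carry the widest counting error. No site of any library exceeded 1436 counts, and the highest site of each library lay between 555 and 1436 although their totals differed far more. All values are shares or differences within these totals, so a lower share of tRNA-Arg-TCG and a higher share of other RNAs cannot be told apart.

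tRNA-Arg-TCG was the family with the most counts in both untreated DUS1L libraries and a minor family in the treated DUS2L libraries. It held 0.746% (95% Wilson interval 0.718 to 0.774) and 0.911% (0.881 to 0.942) of sense counts in DUS2L cells with 5-ClUrd. Untreated DUS2L cells gave 3.35% (3.25 to 3.45) and 3.58% (3.50 to 3.67). These intervals cover counting error only. The order among 55 families was 34th and 32nd with 5-ClUrd, against 11th and 9th without it.

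In DUS1L cells the share was 6.12% and 6.22% with 5-ClUrd, 4th among the families in both libraries. Without 5-ClUrd it was 21.2% and 20.6%, first in both. The mean share was thus 4.19 times lower with 5-ClUrd in DUS2L cells and 3.38 times lower in DUS1L cells, and the libraries of the groups did not overlap. On the log2 scale the 5-ClUrd values minus the untreated ones were -2.07 for DUS2L and -1.76 for DUS1L with libraries scaled to total sense counts. With TMM factors they were -2.71 for DUS2L and -2.80 for DUS1L, and with DESeq2 size factors -2.82 and -3.02 in the same order. Which enzyme had the larger difference therefore turned with the scaling, and the family was lower with 5-ClUrd for both enzymes under each of these.

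**Figure D1:**
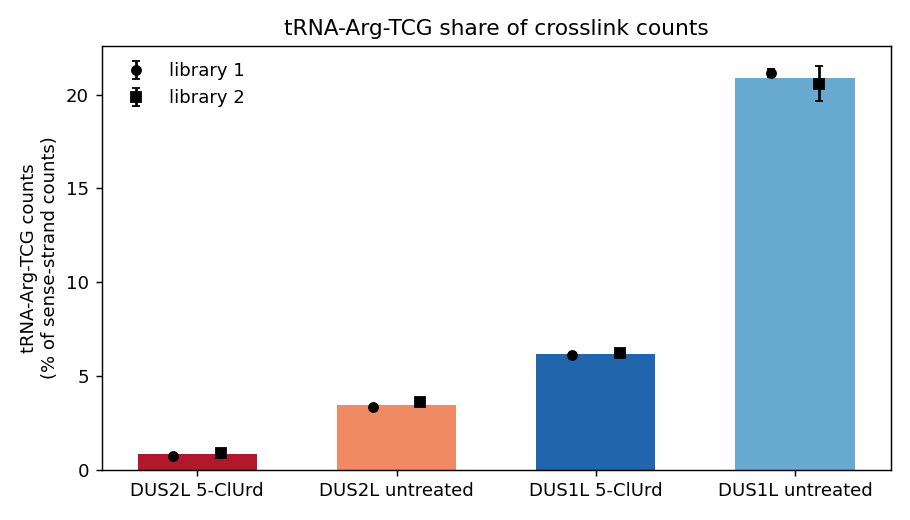
Share of sense-strand counts on tRNA-Arg-TCG in percent, by group. Bars are means of 2 libraries, points are the libraries and their bars are 95% Wilson intervals. The 4 groups do not overlap, from 0.746% and 0.911% in DUS2L with 5-ClUrd to 21.2% and 20.6% in untreated DUS1L.

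In DUS1L cells the counts that member sites reached overlapped between treated and untreated libraries, whereas the shares did not. In DUS1L cells with 5-ClUrd the highest member site held 1180 and 1058 counts, against 1248 and 551 in untreated DUS1L cells. These stood next to the highest site of the whole library, which held 1269 and 1061 counts with 5-ClUrd and 1248 and 555 without it. Of all sites above 500 counts, members were 35 of 539 and 19 of 280 with 5-ClUrd, and 26 of 72 and 1 of 2 without it. TCG-1-1 position 26 alone had 1180 and 1040 counts with 5-ClUrd, against 1248 and 551 without it, in libraries of very different totals. In DUS2L cells members were 2 of 226 and 2 of 214 sites above 500 counts with 5-ClUrd, against 2 of 42 and 4 of 74 without it. Their highest member sites, at 612 and 600 counts with 5-ClUrd and 712 and 943 without it, lay below the highest site of their libraries (1314 to 1436). Whether a limit on counts per site bears on the shares was not tested. With every site above 500 counts in any library left out, the share was 0.179% and 0.164% in DUS2L cells with 5-ClUrd, against 1.55% and 1.79% in untreated DUS2L cells. In DUS1L cells it was then 5.48% and 4.94% with 5-ClUrd, against 18.4% and 15.0% without it. The order of the 4 groups was the same with and without these sites.

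The comparison of the enzymes asks how much of each enzyme's crosslinked RNA this tRNA made up, and the choice of the family did not use it. tRNA-Arg-TCG was lower with DUS2L than with DUS1L under both conditions. With 5-ClUrd the mean share was 0.828% for DUS2L and 6.17% for DUS1L, a log2 difference of -2.90 ± 0.13 (SE; edgeR quasi-likelihood test, adjusted p = 1.18e-06). Untreated, it was 3.47% for DUS2L and 20.9% for DUS1L, a log2 difference of -2.59 ± 0.12 (edgeR, adjusted p = 1.61e-06). Of the 55 families tested, 27.3% were lower with DUS2L in the 5-ClUrd comparison and 41.8% in the untreated one, so a lower level was common among families. The median family differed by 0.49 with 5-ClUrd and by 2.45 untreated (log2, DUS2L minus DUS1L), in the opposite direction to tRNA-Arg-TCG. Leaving out the sites above 500 counts gave -4.93 and -3.32, the first more than 1.5 times the value over all sites. The site files of DUS2L carry the word premapped in their names, whereas the DUS1L files carry the word raw, so a difference in file preparation and the enzyme cannot be told apart.

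The other 4 arginine families, which read the other arginine codons, were also lower with DUS2L in both conditions. With 5-ClUrd their log2 differences were -3.26 for tRNA-Arg-ACG, -1.94 for tRNA-Arg-CCG, -2.41 for tRNA-Arg-CCT and -4.52 for tRNA-Arg-TCT (edgeR, adjusted p between 5.58e-06 and 0.00263). Untreated they were -4.25, -2.36, -3.56 and -3.82 in the same order (edgeR, adjusted p between 9.74e-07 and 0.000779). All 5 arginine families together made up 4.003% ± 0.329 of sense counts with DUS2L and 30.3% ± 0.161 with DUS1L in the presence of 5-ClUrd (SD, n = 2 each). Untreated, they made up 6.48% ± 0.474 with DUS2L and 54.1% ± 4.54 with DUS1L. tRNA-Arg-TCG was 20.6% ± 1.22 of arginine counts in DUS2L cells with 5-ClUrd, against 53.6% ± 1.38 in untreated DUS2L cells. In DUS1L cells it was 20.4% ± 0.355 with 5-ClUrd, against 38.7% ± 2.48 untreated. Among arginine counts, then, the treated libraries of both enzymes held a similar part of tRNA-Arg-TCG, and both untreated groups held more.

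The families whose log2 share most resembled that of tRNA-Arg-TCG over the 8 libraries were tRNA-Arg-CCG (Pearson r = 0.934), tRNA-Arg-TCT (0.887) and tRNA-Arg-ACG (0.863), among 54 other families. tRNA-Arg-CCT was 5th, at 0.714. The 8 values come from 4 groups and share library totals, so these correlations describe the order of the groups. In DUS2L cells tRNA-Arg-CCT went the other way with 5-ClUrd: it held 1.72% and 1.71% of sense counts with 5-ClUrd, against 0.879% and 0.867% without it.

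The 6 references contributed unequally. TCG-1-1 held the most counts in every library. It made up 64.95% and 54.0% of the family in DUS2L cells with 5-ClUrd, and 60.0% and 57.4% in untreated DUS2L cells. In DUS1L cells it made up 45.4% and 49.1% with 5-ClUrd, against 77.3% and 77.8% untreated. Over all sites, the DUS1L groups were thus far apart in the part of TCG-1-1, while the DUS2L groups overlapped. Of the 38 member sites left out at above 500 counts, 22 were on TCG-1-1. Without the 38 sites the DUS2L groups no longer overlapped, and the nearest DUS1L libraries of the 2 conditions came close, at 41.1% and 46.4%. TCG-1-1 then made up 49.6% and 32.1% of the family in DUS2L cells with 5-ClUrd, against 21.3% and 23.7% untreated. In DUS1L cells it then made up 32.5% and 41.1% with 5-ClUrd, against 75.5% and 46.4% untreated. Near-identical copies can share reads, and how the authors assigned such reads is not given in the sources used here, so the split between references is uncertain.

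**Figure D2:**
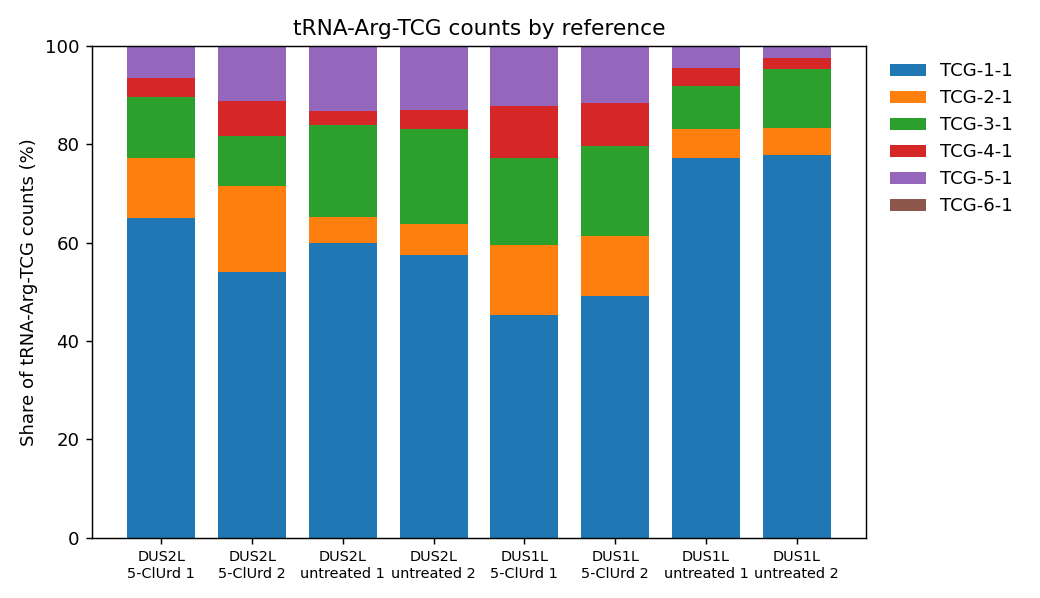
Percent of tRNA-Arg-TCG counts on each of the 6 references, stacked to 100% for each of the 8 libraries. TCG-1-1 is the largest part throughout, at 45.4% and 49.1% in DUS1L with 5-ClUrd and 77.3% and 77.8% in untreated DUS1L, and TCG-6-1 is too small to see.

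With 5-ClUrd, the references of DUS1L cells differed in how far their share of sense counts lay below the untreated one. TCG-1-1 averaged 2.91% with 5-ClUrd and 16.2% without it, a log2 difference of -2.47. TCG-2-1 and TCG-3-1 differed by -0.53 and -0.97. TCG-4-1 (-0.07) and TCG-5-1 (0.04) had treated and untreated libraries that overlapped. Over all sites, the lower share of the family in DUS1L cells was therefore mostly that of TCG-1-1. The other 5 references together held 3.26% with 5-ClUrd and 4.69% without it. TCG-1-1 also carried 22 of the 38 member sites above 500 counts. It had 22890 counts in library 1 with 5-ClUrd and 23624 in untreated library 1, of 824657 and 144322 sense counts. Whether a limit on counts per site bears on this split was not tested.

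In DUS2L cells every reference except TCG-6-1 had a lower share of sense counts with 5-ClUrd, and its treated and untreated libraries did not overlap. The family was chosen for a lower share in this comparison, and the part of all references that was lower is not given here. The log2 differences were -2.06 for TCG-1-1, -0.69 for TCG-2-1, -2.84 for TCG-3-1, -1.29 for TCG-4-1 and -2.63 for TCG-5-1. Leaving aside TCG-6-1 with its few counts, these values lay furthest from those of DUS1L cells for TCG-3-1 and TCG-5-1. TCG-3-1 had 343 and 334 counts in DUS2L cells with 5-ClUrd and 818 and 1187 in untreated DUS2L cells, and 8883 and 6166 counts in DUS1L cells with 5-ClUrd and 2682 and 182 in untreated DUS1L cells. The treated DUS2L libraries had more total counts than the untreated ones and fewer counts on TCG-3-1.

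TCG-6-1 was close to absent, with 1 and 7 counts in DUS2L cells with 5-ClUrd and 1 and 0 in untreated DUS2L cells. DUS1L cells gave 73 and 72 counts with 5-ClUrd and 42 and 0 untreated. A count of 0 allows a share of up to 0.0407% of sense counts in DUS1L untreated library 2 and 0.00174% in DUS2L untreated library 2. In DUS1L untreated library 1, 24 of its 42 counts lay at positions 57 to 59, and a peak call of the authors covered positions 53 to 58. With DUS1L and 5-ClUrd those positions held 3 and 3 of its counts, its highest site held 38 and 49, and peak calls covered positions 4 to 5 in library 1 and 32 to 34 in library 2.

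All 6 references reached the minimum of 10 counts over the libraries and were tested between the enzymes. With 5-ClUrd, 6 of 6 were lower with DUS2L, where 34.9% of the 241 references tested were lower. The log2 differences ran from -2.58 ± 0.33 (SE) for TCG-1-1 to -3.64 ± 0.60 for TCG-4-1 (edgeR, adjusted p between 1.88e-06 and 0.00894). Untreated, 5 of 6 were lower with DUS2L, where 36.9% of all tested references were. TCG-5-1 did not pass the test untreated, at -0.66 ± 0.51 (edgeR, adjusted p = 0.258). It had 574 and 808 counts in untreated DUS2L cells and 1300 and 38 in untreated DUS1L cells.

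The references also covered different stretches. TCG-1-1 had sites from position 2 to position 64, at 62 positions (position 1 is the first base of the reference, which can be shifted from conventional tRNA numbering). TCG-3-1 had sites from position 2 to 33 and none beyond. TCG-2-1 began at position 13, TCG-5-1 at 21 and TCG-4-1 at 22, and all of these ended at 64. Up to position 12 the family profile therefore came from TCG-1-1, TCG-3-1 and the few counts of TCG-6-1, and past position 33 it came from references other than TCG-3-1. No reference had a count beyond position 64. The coverage of reads and the rule for shared reads were not examined, since the files hold single positions.

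Within their stretches TCG-2-1, TCG-4-1 and TCG-5-1 resembled each other. Large parts of their counts lay at positions 36 and 37, at the anticodon, and at positions 57 to 59, in the T loop. On TCG-2-1, positions 57 to 59 held 61.4% and 71.7% of the reference's counts in DUS2L cells with 5-ClUrd and 23.0% and 41.9% in untreated DUS2L cells. In DUS1L cells they held 27.4% and 34.8% with 5-ClUrd and 49.4% and 52.4% untreated. The treated share was thus higher than the untreated one for DUS2L and lower for DUS1L. On TCG-5-1 the same positions held 53.7% and 75.1% in DUS2L cells with 5-ClUrd, against 22.6% and 34.0% untreated. In DUS1L cells they held 29.6% and 39.6% of TCG-5-1 with 5-ClUrd, against 53.4% and 55.3% untreated. TCG-4-1 had 44.04% and 69.6% there in DUS2L cells with 5-ClUrd, against 29.6% and 39.9% untreated, and in DUS1L cells 31.2% and 44.9% with 5-ClUrd, against 56.5% and 66.7% untreated.

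On TCG-3-1, position 26 was the main site with DUS2L. It held 75.8% and 76.3% of the reference's counts in DUS2L cells with 5-ClUrd, against 45.7% and 46.5% untreated. In DUS1L cells with 5-ClUrd it held 12.5% and 16.7%, against 40.8% and 68.1% untreated. The D arm (positions 10 to 25), the stem and loop that dihydrouridine synthases act on, held 53.6% and 49.4% of TCG-3-1 counts in DUS1L cells with 5-ClUrd, against 13.98% and 14.3% untreated. In DUS2L cells it held 9.04% and 10.8% of them with 5-ClUrd, against 4.16% and 3.45% untreated. TCG-3-1 was thus the reference with the largest part of its counts in the D arm in DUS1L cells with 5-ClUrd. This order depends on the stretch that each reference covered. TCG-3-1 had no site beyond position 33, and TCG-2-1, TCG-4-1 and TCG-5-1 began inside the D arm, at positions 13, 22 and 21. On TCG-1-1, with sites from position 2 to 64, the D arm held 11.7% and 9.86% in DUS1L cells with 5-ClUrd.

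The same 3 positions were among the 5 leading ones of every group: position 26 at the hinge between the D and anticodon stems, position 37 next to the anticodon, and position 58 in the T loop. Together they held 79.0% ± 3.72 of the family's counts in DUS2L cells with 5-ClUrd and 56.7% ± 0.759 in untreated DUS2L cells (SD, n = 2 each). In DUS1L cells they held 30.7% ± 4.95 with 5-ClUrd and 53.2% ± 37.4 untreated. The untreated DUS1L libraries disagreed: position 26 held 8.94% of library 1 and 45.2% of library 2. Library 2 had 1517 counts on the family, of which 551 lay on TCG-1-1 position 26.

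**Figure D3:**
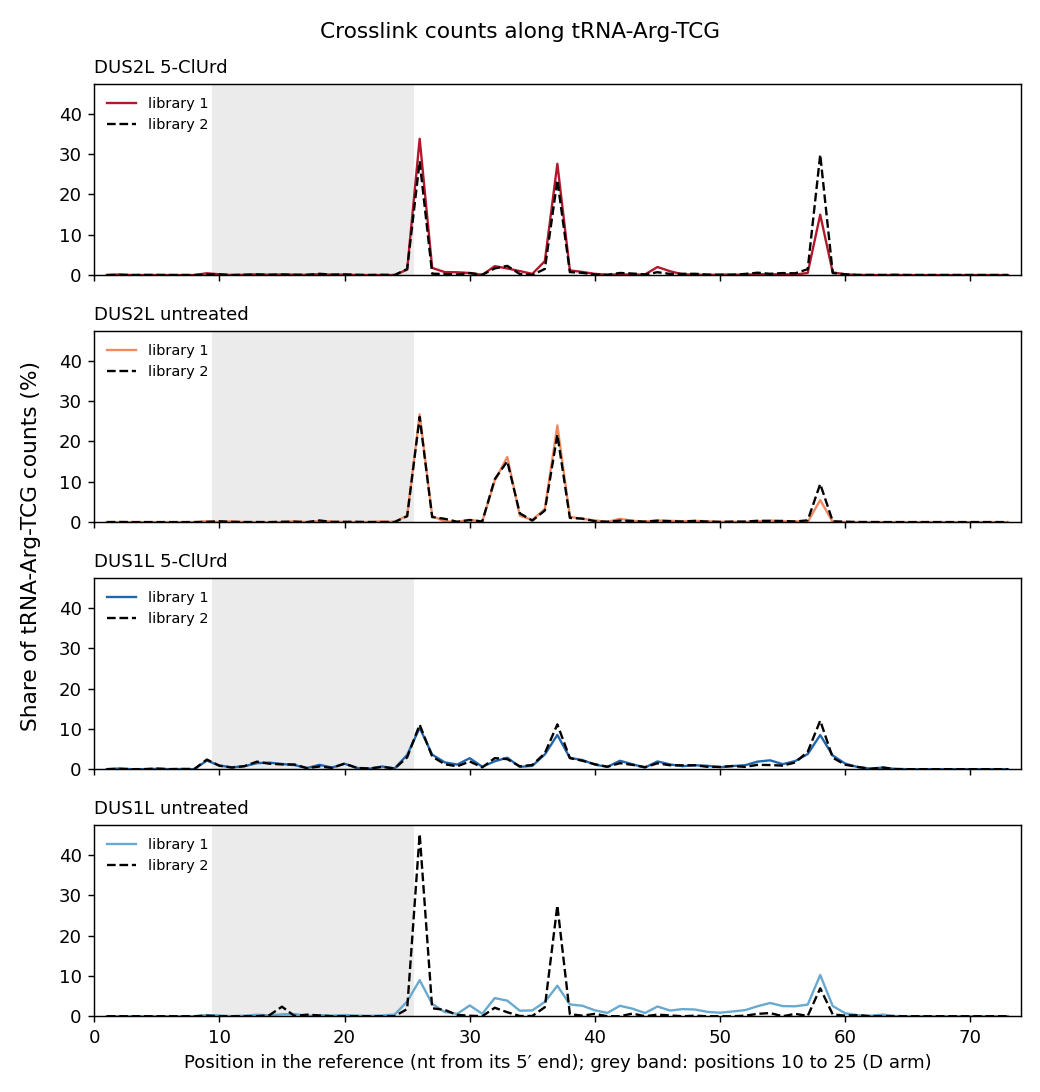
Percent of tRNA-Arg-TCG counts at each reference position, counted from the 5′ end, in 4 panels, 1 per group, with a line per library and the D arm (positions 10 to 25) in grey. Positions 26 and 37 stand out in every group and position 58 in most, positions 32 and 33 stand out in untreated DUS2L, and counts spread over most positions in DUS1L with 5-ClUrd.

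With DUS1L and 5-ClUrd the counts were spread over the molecule. Position 26 held 10.3% and 11.04% of the family, position 58 held 8.46% and 12.0%, and position 37 held 8.49% and 11.1%. Positions 57 and 36 came next, at means of 4.03% and 3.80%. In DUS2L cells with 5-ClUrd the corresponding means were 31.0% at position 26, 22.4% at position 58 and 25.6% at position 37. Position 58 differed most between the treated DUS2L libraries, at 15.0% and 29.9%. Position 26 was 20.4 points higher with DUS2L than with DUS1L in the presence of 5-ClUrd, and 0.224 points higher without the sites above 500 counts, which include TCG-1-1 position 26.

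Positions 32 and 33, in the anticodon loop before the anticodon, held a larger part of the family in untreated DUS2L cells than in the other groups. In DUS2L cells they held 106 and 129 counts with 5-ClUrd, against 1152 and 1587 without it, in spite of larger treated libraries. That was 3.83% and 3.90% of the family with 5-ClUrd, against 26.4% and 25.7% untreated. As a share of sense counts both positions together were 28.2 times lower with 5-ClUrd in DUS2L cells, against 4.19 times for the family. In DUS1L cells they held 4.80% and 5.22% of the family with 5-ClUrd and 8.37% and 3.10% untreated, which overlap. TCG-1-1 supplied 82 and 82 of these counts in DUS2L cells with 5-ClUrd and 638 and 910 in untreated DUS2L cells. TCG-3-1 supplied 20 and 35 with 5-ClUrd and 394 and 532 untreated. Among the other arginine families, tRNA-Arg-TCT and tRNA-Arg-CCT also had large parts of their counts there in untreated cells. tRNA-Arg-ACG and tRNA-Arg-CCG did not: in untreated DUS2L cells the positions held 1.18% and 0.705% of their counts. The highest group mean of these families there was 4.71%, for tRNA-Arg-ACG in DUS1L cells with 5-ClUrd. The positions held 12.3% of tRNA-Arg-TCT counts in DUS2L cells with 5-ClUrd and 43.96% untreated, and in DUS1L cells 7.50% with 5-ClUrd and 25.2% untreated. They held 44.3% of tRNA-Arg-CCT counts in DUS2L cells with 5-ClUrd and 54.6% untreated, and in DUS1L cells 11.8% with 5-ClUrd and 51.7% untreated.

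Between the enzymes, positions 32 and 33 together held 3.87% ± 0.0475 of the family with DUS2L and 5.01% ± 0.301 with DUS1L in the presence of 5-ClUrd (SD, n = 2 each). Untreated they held 26.1% ± 0.501 with DUS2L and 5.73% ± 3.73 with DUS1L. The libraries of the enzymes did not overlap in either condition, with DUS2L lower in the first and higher in the second. The exact two-sided permutation p was 0.33333 in both, the smallest that 2 libraries against 2 allow.

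**Figure D4:**
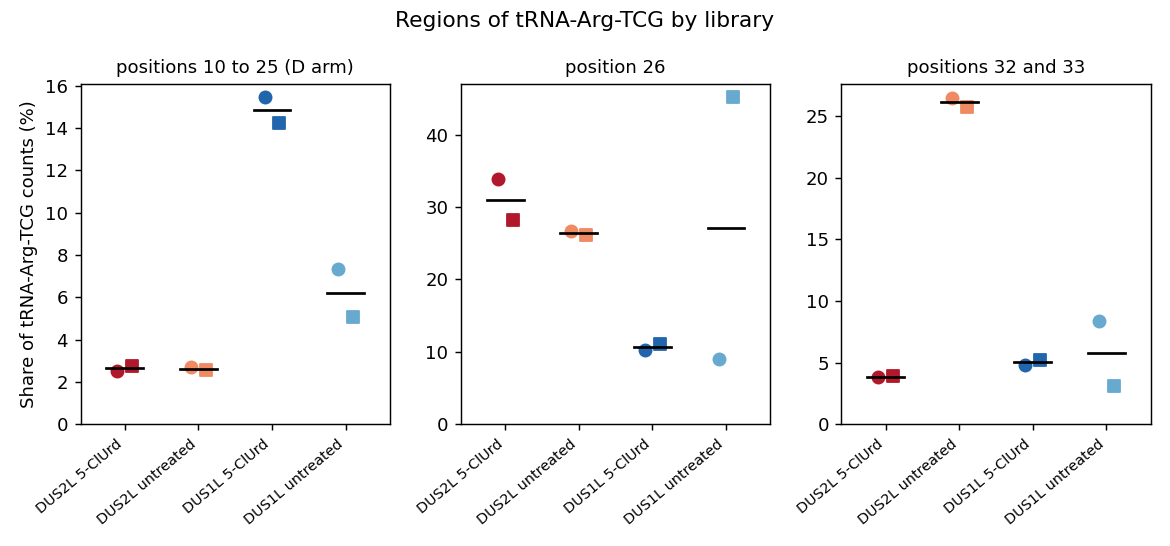
Percent of tRNA-Arg-TCG counts in the D arm, at position 26 and at positions 32 and 33, by group, with circles for library 1, squares for library 2 and a line at the mean. The D arm is highest in DUS1L with 5-ClUrd (15.5% and 14.2%), positions 32 and 33 are highest in untreated DUS2L (26.4% and 25.7%), and the untreated DUS1L libraries lie far apart at position 26.

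The D arm was a small part of the profile with DUS2L and a larger one with DUS1L. It held 2.53% and 2.75% of the family in DUS2L cells with 5-ClUrd, against 15.5% and 14.2% in DUS1L cells with 5-ClUrd. Its means were 2.64% ± 0.156 with DUS2L and 14.8% ± 0.857 with DUS1L, a difference of -12.2 percentage points (exact two-sided permutation p = 0.33333, the smallest possible). Untreated, it held 2.69% and 2.55% with DUS2L, against 7.35% and 5.08% with DUS1L, and the means differed by -3.60 points (the same exact p). With each site counted once in place of its counts the difference with 5-ClUrd was -3.0 points, and without the sites above 500 counts the untreated one was -23.7 points. Its D loop part, positions 14 to 21, held 0.818% ± 0.0830 with DUS2L and 6.96% ± 0.532 with DUS1L in the presence of 5-ClUrd (SD, n = 2 each), and 0.694% ± 0.0730 with DUS2L and 2.77% ± 0.7501 with DUS1L untreated.

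The D arm share with 5-ClUrd compared with untreated differed between the enzymes in the libraries at hand. In DUS1L cells it made up 14.8% of the family with 5-ClUrd and 6.21% without it. In DUS2L cells it made up 2.64% with 5-ClUrd and 2.62% without it. TCG-3-1 supplied 4759 of 7797 and 3047 of 4809 D arm counts in DUS1L cells with 5-ClUrd, against 375 of 2247 and 26 of 77 untreated. On TCG-1-1 alone the D arm held 11.7% and 9.86% in DUS1L cells with 5-ClUrd, against 7.89% and 3.31% untreated. How far the split between references sets the D arm share of the family was not tested. As a share of all sense counts the D arm was lower with 5-ClUrd for both enzymes, by log2 differences of -2.04 in DUS2L cells and -0.51 in DUS1L cells, which is less than the family's -1.76 in DUS1L cells. Among the stretches of the DUS1L profile, only the 5′ end (positions 1 to 9) had a higher mean share of sense counts with 5-ClUrd, at 0.159% with 5-ClUrd and 0.0503% untreated.

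The other arginine families had the same order in the D arm with 5-ClUrd. There it held 2.16% with DUS2L and 17.4% with DUS1L for tRNA-Arg-ACG, 20.6% with DUS2L and 47.2% with DUS1L for tRNA-Arg-CCG, 8.71% with DUS2L and 18.8% with DUS1L for tRNA-Arg-CCT, and 14.7% with DUS2L and 31.3% with DUS1L for tRNA-Arg-TCT. Position 26 was a main site for tRNA-Arg-ACG, at 33.7% of its counts with DUS2L and 9.31% with DUS1L in the presence of 5-ClUrd. It held 0.373% of tRNA-Arg-TCT counts with DUS2L and 1.74% with DUS1L, and 0.262% of tRNA-Arg-CCT counts with DUS2L and 1.79% with DUS1L.

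Tested position by position, counts on the family were lower with DUS2L almost throughout. Of the 62 positions 60 reached the minimum of 10 counts. With 5-ClUrd 59 of the 60 were lower with DUS2L and 0 were higher (edgeR, adjusted p under the threshold of 0.05), where 19.0% of all 4424 sites tested were lower. Position 64, with 2 counts for DUS2L and 34 for DUS1L, was the exception. The median log2 difference was -5.19 over the 60 positions, against 0.69 over all sites. Untreated, 52 of 60 positions were lower and 0 higher, where 13.1% of all sites were lower. The untreated medians were -4.43 for the family and 3.87 for all sites. Both DUS2L libraries lay below both DUS1L libraries in share of sense counts at 29 of the 60 positions untreated, against 60 with 5-ClUrd. The part of all sites without such overlap is not given here. Without DUS1L untreated library 1, which held 30556 of the untreated DUS1L counts against 1517 in library 2, 18 of the positions were lower untreated. With the Wald test of DESeq2 in place of edgeR, 34 positions were lower with 5-ClUrd and 14 untreated. The 19.0% and 13.1% of all sites belong to the main fit. The share of all sites lower under these alternatives is not given here, so their counts have no background beside them.

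The 3 leading sites differed least with 5-ClUrd. Position 26 had 935 and 934 counts with DUS2L, against 5171 and 3728 with DUS1L (log2 difference -1.37 ± 0.47 SE, edgeR, adjusted p = 0.0126). Position 37 had 763 and 778 counts with DUS2L, against 4284 and 3753 with DUS1L (-1.53 ± 0.50, edgeR, adjusted p = 0.00854). Position 58 had 414 and 988 counts with DUS2L, against 4268 and 4065 with DUS1L (-1.72 ± 0.56, edgeR, adjusted p = 0.00732). In the treated DUS1L libraries these sites lay near the highest site of the library, at 1269 and 1061 counts. Leaving TCG-6-1 aside, position 58 held 1034 to 1097 and 1009 to 1022 counts per reference there. Position 26 held 910 to 1180 and 387 to 1040. Whether a limit on counts per site bears on these smaller differences was not tested.

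The 5 positions with the lowest fitted values with 5-ClUrd were 11, 63, 24, 22 and 61. For positions with 0 counts the fitted value is no bound, so the fold below is computed from counts. Position 11 had 0 counts with DUS2L and 365 with DUS1L, at least 65.3-fold lower with DUS2L, taking 3 counts over the group as the limit of a count of 0. Position 63 had 0 counts with DUS2L and 338 with DUS1L (at least 60.5-fold lower). Positions 24 and 22 had 0 counts each with DUS2L and 145 and 122 with DUS1L (at least 25.9-fold and 21.8-fold lower). Position 61 had 1 count with DUS2L and 450 with DUS1L, with DUS1L 242 times higher (counting interval 43.1 to 9562). All 5 passed the test (edgeR, adjusted p between 1.12e-07 and 1.68e-05). Other positions of the D arm differed by more than the bounds at 24 and 22: position 14 had 4 counts with DUS2L and 1272 with DUS1L (log2 difference -7.29 ± 1.18 SE, edgeR, adjusted p = 1.47e-08).

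Untreated, the lowest fitted values were at positions 63, 14, 17, 64 and 15, the first 4 of which had 0 counts with DUS2L. Position 63 had 0 counts with DUS2L and 122 with DUS1L, at least 81.0-fold lower with DUS2L. Position 14 in the D loop had 0 counts with DUS2L and 75 with DUS1L (at least 49.8-fold lower), and position 17, also there, had 0 with DUS2L and 31 with DUS1L (at least 20.6-fold lower). Position 64 had 0 counts with DUS2L and 21 with DUS1L (at least 13.9-fold lower). Position 15 had 5 counts with DUS2L and 181 with DUS1L (log2 difference -7.44 ± 1.09 SE, edgeR, adjusted p = 4.58e-10). Position 59 had 13 counts with DUS2L and 781 with DUS1L (-6.34 ± 0.93, edgeR, adjusted p = 4.52e-10), more than the bounds at positions 17 and 64.

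The positions that did not pass the test untreated included the anticodon loop sites. At position 33 untreated DUS2L cells had 704 and 930 counts and untreated DUS1L cells 1181 and 15, a log2 difference of 0.04 ± 0.62 (SE; edgeR, adjusted p = 1.0). At position 32 they had 448 and 657 counts with DUS2L and 1377 and 32 with DUS1L (-0.95 ± 0.63, edgeR, adjusted p = 0.198). With 5-ClUrd the same positions were lower with DUS2L, at -3.32 ± 0.68 for position 33 and -3.21 ± 0.68 for position 32 (edgeR, adjusted p = 9.63e-06 and 1.94e-05).

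The authors' peak calls, short intervals scored by the summed counts of the sites inside, covered little of the family. Of 1680 peaks over all libraries 24 lay on tRNA-Arg-TCG. In DUS2L libraries the family had 1 of 225 and 2 of 300 peaks with 5-ClUrd, and 2 of 200 and 3 of 201 untreated. In DUS1L libraries it had 6 of 335 and 7 of 256 peaks with 5-ClUrd, and 1 of 126 and 2 of 37 untreated. Peaks over all RNAs were thus also more numerous with 5-ClUrd in DUS1L cells. In untreated DUS2L cells all peaks on the family covered positions 32 and 33, among them the peak on TCG-1-1 in library 2 with a score of 910. In DUS1L cells with 5-ClUrd positions 57 to 59 of TCG-2-1, TCG-4-1 and TCG-5-1 were called in both libraries, with scores from 1307 to 1969. TCG-1-1 position 26, with over 1000 counts in both DUS1L libraries with 5-ClUrd, lay in no peak there.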

How the data were processed

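Crosslink sites of 8 iCLIP libraries were analysed. The deposited site files give a whole-number count for each position and strand, and the deposited peak files give a score that equalled the summed site counts of the same library in 24 of 24 peaks on the family. STAR 2.7.0f and hg38 were used, per the submitters' processing notes; the handling of molecular identifiers, shared reads and filters is not given in the sources used here. Position is the third column of the site files; whether it is the crosslinked nucleotide or the cDNA end is not given in the sources used here.

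Sense counts were summed to references, to 55 families (50 of tRNA by amino acid and anticodon, 5 of rRNA) and to positions. Antisense counts (29 on the family) were left out. Gene positions came from RefSeq. Features with at least 10 counts over the 8 libraries were tested in 1 fit of all groups with edgeR 4.0.16 (quasi-likelihood F test, R 4.3.3), scaled to total sense counts, with Benjamini-Hochberg adjustment over all features and a threshold of 0.05. Region shares were compared by exact permutation tests over libraries (scipy 1.17.1). Summaries and figures used Python 3.11.15, pandas 2.3.3, numpy 2.4.6 and matplotlib 3.10.9. The fits were tested on simulated data.

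The family, lists and tests were chosen with earlier results of these data known. Named were all references, the 5 leading positions per group, the 5 largest rises and falls per enzyme contrast (no position rose), the 3 most similar families (Pearson correlation of log2 shares, 0.5 counts added) and the other 4 arginine families. Other positions, the smallest falls and those not passing the test, were named after their values were seen. The reference fit and the difference of effects were added after the data were seen. Alternatives were TMM factors, the size factors and the Wald test of DESeq2 1.42.0, count minimums of 1 and 50, the replicate number as a block, only the 4 libraries of a contrast, the tRNA total, sites above 500 counts left out, each site counted once, both strands, and each library left out. The 2 libraries of each group differed beyond sampling noise along the family (chi-square per degree of freedom between 4.51 and 60.8). Libraries were not paired by replicate number in the main fit. Correlations of same-numbered deviations ran from -0.382 to 0.301, and were 0.270 for DUS1L and 0.301 for DUS2L between treated and untreated libraries. So few libraries cannot decide whether same-numbered libraries belong together. With 2 libraries a group, p-values measure the spread between these libraries.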

Additional observations from a re-analysis of the deposited data

Results flagged for a closer look

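TCG-3-1 and TCG-5-1 stood out because their parts of the family with 5-ClUrd moved in opposite directions for the enzymes. Within the family, TCG-3-1 was 7.76 percentage points lower with 5-ClUrd in DUS2L cells (a difference of -7.76; 11.3% with 5-ClUrd and 19.0% untreated) and 7.55 points higher in DUS1L cells (17.9% with 5-ClUrd and 10.4% untreated). TCG-5-1 differed by -4.48 points in DUS2L cells (8.66% with 5-ClUrd and 13.1% untreated) and by 8.42 points in DUS1L cells (11.8% with 5-ClUrd and 3.38% untreated). In DUS1L cells the 5 references other than TCG-1-1 together made up 52.8% of the family with 5-ClUrd and 22.5% untreated. As a share of sense counts TCG-3-1 was lower with 5-ClUrd for both enzymes (log2 -2.84 in DUS2L and -0.97 in DUS1L). TCG-5-1 was lower in DUS2L (-2.63), and its DUS1L libraries overlapped (0.04). These shifts of share were not tested.

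The 5-ClUrd effect on the share of sense counts, DUS2L minus DUS1L, was -1.87 ± 0.59 (log2, SE) for TCG-3-1 and -2.65 ± 0.73 for TCG-5-1. The family was chosen in the comparisons that make up this difference, so the values are a description with no test. DUS1L untreated library 2, with 182 counts on TCG-3-1 and 38 on TCG-5-1, enters both, and its part in the result was not tested.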

How the results depend on the processing

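The family stayed lower with DUS2L past the threshold under all 18 alternatives, at log2 differences from -4.93 to -2.71 with 5-ClUrd (adjusted p up to 0.00209) and from -3.32 to -1.95 untreated (up to 0.0139; edgeR or DESeq2). TMM moved the median family to 0.06 with 5-ClUrd, against 0.49, and to 2.86 untreated, against 2.45. The replicate block gave -2.90 with 5-ClUrd and -2.59 untreated and left both calls of the family as they were. The 5-ClUrd difference was -2.71 in DUS2L and -2.80 in DUS1L with TMM, -2.82 and -3.02 with DESeq2 size factors and also with its Wald test, and -3.29 and -1.68 without sites above 500 counts, so the enzyme with the larger fall turned with TMM and DESeq2. With the tRNA total it was -2.27 in DUS2L.

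Fewer positions were lower with DUS2L with the Wald test (34 with 5-ClUrd, 14 untreated) and with DESeq2 size factors (25 untreated). For no alternative is the share of all sites that was lower given here, so the position counts have no background beside them. Leaving out 1 library at a time gave 18 (without DUS1L untreated library 1) to 55 (without DUS1L untreated library 2) untreated. The D arm difference with 5-ClUrd was -10.3 points without sites above 500 counts and -3.0 with each site counted once, and untreated it was -23.7 without those sites. The difference at position 26 with 5-ClUrd was 20.4 points, 0.224 without those sites and 2.36 with each site once; untreated it was -0.68 and ranged from -18.8 to 17.5 with a library left out (highest without DUS1L untreated library 2, lowest without library 1). The anticodon arm difference with 5-ClUrd, -0.88 points, turned to 12.4 without the high sites and 3.04 with each site once, and ranged from -5.71 to 3.96 with a library left out. The T arm difference with 5-ClUrd, -2.62 points, ranged from -11.1 to 5.89. In both, the extremes came from leaving out a treated DUS2L library. The causes were not tested. Depth limits DUS1L untreated library 2 most (7369 counts).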
